A study of Mus musculus with 8 samples.

Results

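The baseline transcriptome of the control mouse thyroid was described from 4 one-colour Agilent arrays, 1 for each thyroid, as the genes whose RefSeq probe was well above the local background on all 4 arrays. Each gene was read by the brightest of its RefSeq probes, taken by the mean over the arrays, and 15198 of the 21021 RefSeq gene names on the array met this rule (72.3%). Of these, 14726 were represented by a coding (NM_) and 472 by a non-coding (NR_) RefSeq transcript. The mice were female Balb/c animals, 8 weeks old and fed a standard normal-iodide diet, and total RNA was extracted from the thyroids. The study's text calls the controls untreated, whereas a legend says that RNA was taken 24 hours after saline was given, so their handling is not settled by the sources used here. They carried no transgene. The series also holds 4 arrays of thyroids exposed to pertechnetate, which were not compared here. The control thyroids are numbered 1 to 4 as in the labels. Nothing in the sources says how the glands were freed from the surrounding tissue.

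The thyroid follicle is a single layer of epithelial cells around a store of thyroglobulin. These cells take up iodide by the symporter NIS (Slc5a5) at their base, pass it through their apical side, oxidise it with hydrogen peroxide from the Duox enzymes and couple it to thyroglobulin (Tg), under the control of the pituitary hormone TSH and its receptor (Tshr). Between the follicles lie the calcitonin-producing C cells and a dense capillary net. The parathyroids, the strap muscles, the trachea, brown and white fat and, in the mouse, pieces of thymus lie against or within the gland.

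Each array had 59305 spots for mouse transcripts, of which 60.5% to 75.01% were well above background on the 4 arrays, and none was saturated. The 75th percentile of the background-subtracted intensity was 701 on array 1 and between 1144 and 1230.0 on the other arrays. Pearson correlations of the log2 signal were taken over all probes, which do not count as independent replicates, and were between 0.951 and 0.974 for the 6 pairs of arrays. Control thyroids 1 and 2 stood apart from control thyroids 3 and 4 by genes of the thymus, of T cells and of cell division, and array 1 had the lowest 75th percentile although the largest share of its spots (75.01%) was well above background. The results that rest on these arrays are given with each array's own value. Xist, the X-inactivation transcript of female cells, was detected on all 4 arrays, at a log2 signal of 10.24, 10.23, 10.97 and 10.78. None of the 4 Y-linked genes examined (Ddx3y, Kdm5d, Eif2s3y and Uty) was detected on any array.

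All values are log2 signals after quantile normalization between the 4 arrays. Probes differ in how strongly they bind, so a rank orders probe signals and only loosely the amounts of transcript. For the 3769 genes with at least 2 detected RefSeq probes, the median difference in mean log2 signal between their 2 brightest probes was 1.65. Quantile normalization gives the same set of values to every array, which narrows the spread of the brightest probes.

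Among the brightest probes of the gland were those of thyroid and parathyroid products and of skeletal muscle genes, and others that hold a repeated sequence. Probe sequences were searched for stretches of 20 bases that also occur, on either strand, in the promoter windows of at least 5 of the 26994 genes with such windows (250 bases before to 50 after the start, from RefSeq, GRCm38.p6). Such a stretch was present in the probes of 187 member genes (1.23%). It was present in 9 of the 20 brightest (45%), 16 of the 50 brightest and 19 of the 100 brightest. The following 30-base windows from 6 such probes, at ranks 1, 5, 8, 10, 22 and 30, are shown as examples of the sequences found. Capitals mark the 20 bases of each probe that occurred in the largest number of promoters. Letters run from 5′ to 3′ as on the array.
Kctd14: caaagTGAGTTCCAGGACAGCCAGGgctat
Glrx2: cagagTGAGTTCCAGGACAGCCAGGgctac
Elk1: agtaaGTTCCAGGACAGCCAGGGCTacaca
Exosc2: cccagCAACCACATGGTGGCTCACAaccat
Synrg: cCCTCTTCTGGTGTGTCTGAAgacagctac
Pbld1: gagtgTCTGAAGACAGCTACAGTGTaattt

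The stretch in the probes of Kctd14 and Glrx2 was the same, and it occurred in the promoters of 24 genes (0.089% of all genes in the table). That of Elk1 overlaps it by most of its length and occurred in 19 (0.070%). These letters belong to the B1 family of short interspersed repeats, and those of the probes of Exosc2 (53 genes, 0.196%), Synrg (39 genes, 0.144%) and Pbld1 (36 genes, 0.133%) to the B2 family. Both families are scattered through the mouse genome in very many copies. In mm9 the full probes lie at chr7:104606896-104606955 on the plus strand for Kctd14, chr1:145596708-145596767 on the plus strand for Glrx2, chrX:20510521-20510580 on the minus strand for Elk1, chr2:31536706-31536765 on the plus strand for Exosc2, chr11:83855517-83855576 on the plus strand for Synrg and chr10:62540215-62540274 on the plus strand for Pbld1.

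Other probes of the same genes were much dimmer. The probe of Kctd14, which held rank 1 of all 15198 genes, had a log2 signal of 18.89, 19.01, 19.01 and 18.81 on the 4 arrays, whereas the brightest of 2 further Kctd14 probes had a mean of 11.27. For Elk1, an ETS transcription factor, rank 10 rested on a probe with a mean of 18.56 against 6.03 for another probe of the gene. The pair of means was 18.81 and 12.53 for Glrx2, a mitochondrial glutaredoxin, and 18.08 and 6.38 for Pbld1. Where a gene of the 187 had another RefSeq probe without such a stretch, the median difference between the probes was 5.74 in log2 signal. Since the brightest probe was taken for each gene, a probe that is brighter than the others is what the rule selects, so the direction of this difference follows from the choice. The median log2 signal was 13.74 over the 187 genes and 10.45 over the other member genes. Of the 187 stretches, 131 were simple repeats of a few letters (median 13.57) and 56 were other sequence (median 15.34). What these bright probes bound was not tested.

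Slc10a1, known as a bile acid transporter of the liver, held rank 3 with 18.68, 18.86, 18.96 and 18.89, while a second probe of the gene had a mean of 4.09. Its bright probe shared its most frequent 20 bases with the promoters of 2 genes and so stayed outside the set. Gm5523, annotated as a non-coding RNA, held rank 18 with a mean of 18.32 and shares a run of 27 bases with the probe of Gapdh, the glycolytic enzyme at rank 14. The run is shown because neither probe can tell the transcripts apart over these letters, and all of it is common to both.
Gm5523 and Gapdh: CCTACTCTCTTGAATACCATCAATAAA
The probe of Gm12070 (rank 25) shared 43 bases with that of Gapdh.

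When these probes were set aside, so that their genes were read by another detected probe or dropped (15092 genes), Aldoa, Slc10a1, Tg, Tnni2 and Tnnc2 were the 5 brightest genes, and 81 of the 100 brightest genes were shared with the first order. The probe of Tg itself lies at chr15:66682078-66682137 of mm9 on the plus strand, and no stretch of 20 bases in it occurred in any promoter window. Nor did one occur in the probe of Pth at chr7:120529242-120529301 on the minus strand. Their first 30 bases are given to set beside the repeats above.
Tg: agagtgaagaggaagacttggaagttggac
Pth: actgacatatgctgctaccttttcaagctt

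**Figure D1:**
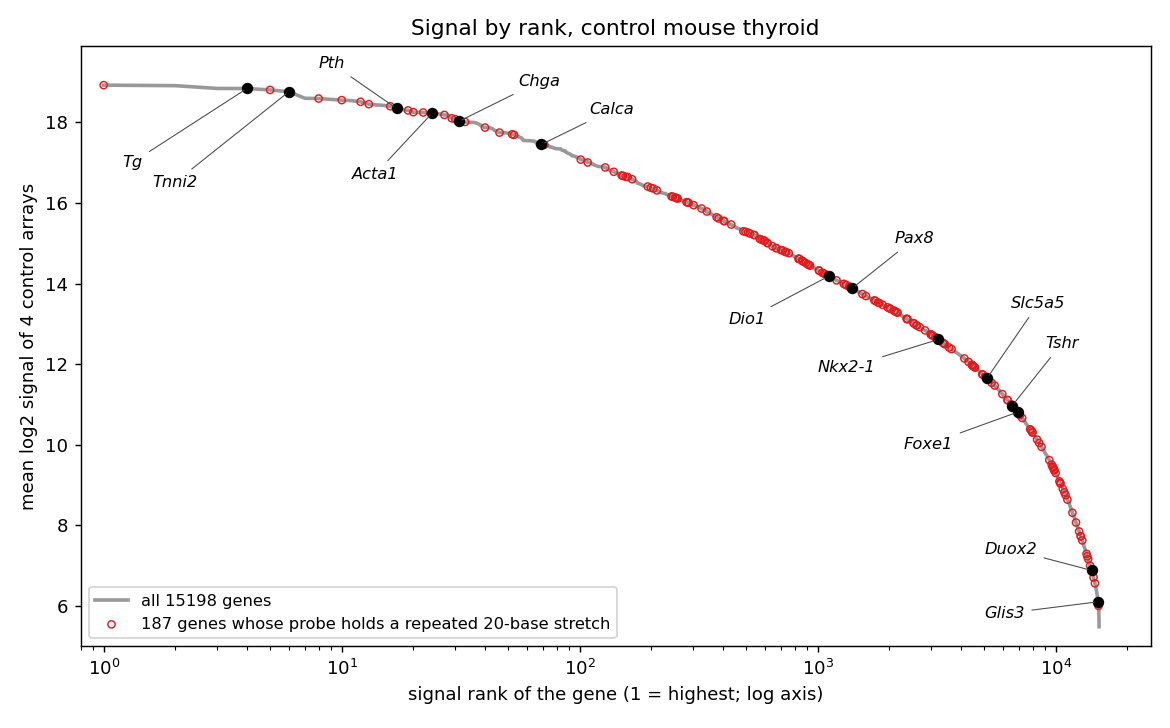
Mean log2 signal over the 4 control arrays (vertical axis) of the 15198 member genes against their signal rank (horizontal axis, log scale). The grey line is all genes, red circles are the 187 genes whose probe holds a repeated 20-base stretch, and black points are named thyroid, parathyroid, C cell and muscle genes, from Tg at rank 4 to Glis3 at rank 15073.

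Among the genes of hormone synthesis, Tg was the brightest, at rank 4, and 15 of the 16 listed genes were detected on all 4 arrays. The log2 signal of Tg, the protein scaffold on which the hormones are made, was 18.81, 18.96, 18.86 and 18.75 (mean 18.84 ± 0.087, SD, n = 4), so that the highest and the lowest array differed by 0.21.

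The iodide transporters were less bright than Tg and ranged more widely. Quantile normalization narrows the spread of the brightest probes, such as that of Tg, so these spreads cannot be compared as true variability. Slc5a5, the basal iodide symporter NIS, had 10.93, 12.10, 12.51 and 11.06 (mean 11.65 ± 0.78, SD, n = 4, rank 5139). Thyroids 2 and 3 were thus above thyroids 1 and 4, with a 3.00-fold range. Slc26a7, an anion transporter of the apical membrane, had 10.93, 11.43, 12.36 and 11.57. Slc26a4, the apical anion exchanger pendrin, was the undetected member of the list: it had 7.31 and 6.33 in thyroids 1 and 2, and 5.35 and 5.97, not well above background, in thyroids 3 and 4. Ano1, a chloride channel that also conducts iodide, had a mean of 13.15 ± 0.39 (SD, n = 4), and Cftr, another chloride channel, 7.98 ± 0.40.

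The peroxide-forming enzymes were read by dim probes. Duox2, the main source of peroxide at the apical membrane, had 5.88, 6.74, 7.79 and 7.13 (rank 14129), and Duox1 had a mean of 9.21 ± 0.24 (SD, n = 4). Their maturation factors Duoxa1 and Duoxa2 had means of 11.31 ± 0.15 and 11.40 ± 0.30. The low rank of the Duox probes does not give the amount of their transcripts.

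Several genes that handle the finished hormone and its iodine were detected on all 4 arrays. Iyd, which recovers iodide from iodotyrosines, had 10.78, 11.47, 11.69 and 10.94. Dio1, the type 1 deiodinase that activates thyroxine, had 13.81, 14.55, 14.69 and 13.69 (rank 1110), and Dio2, the type 2 enzyme, a mean of 10.39 ± 0.23 (SD, n = 4). Slc16a10 (MCT10), a hormone transporter, had a mean of 8.55 ± 0.12 (SD, n = 4).

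The 5 transcription factors of thyroid cell identity were all detected. Pax8 had 13.91, 14.29, 14.16 and 13.19 (rank 1395), Nkx2-1 had 12.16, 12.84, 13.02 and 12.44 (rank 3212), and Hhex a mean of 12.39 ± 0.38 (SD, n = 4). Foxe1 had the widest range of the 5, with 9.70, 10.92, 11.83 and 10.80, a 4.37-fold difference between thyroids 3 and 1. Glis3 was close to background, with a mean of 6.10 ± 0.37 (SD, n = 4) and rank 15073.

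Most of these genes were higher in thyroids 2 and 3 than in thyroids 1 and 4. Of the 20 detected genes of hormone synthesis and thyroid cell identity, 11 had their 2 highest values in thyroids 2 and 3 (55%), which was also the most frequent pair over all member genes (30.2%). For the 9 listed genes of follicular epithelium the count was 9. Among them, Krt18, a keratin of simple epithelia, had 16.01, 16.28, 16.43 and 15.63, Cdh16, a kidney and thyroid cadherin, 15.23, 15.69, 16.05 and 14.96, and Cldn3, a tight junction protein, 14.13, 15.03, 15.23 and 14.41. A list score is used below for a group of genes on an array: the mean over its detected genes of the log2 deviation from each gene's own mean of the 4 arrays. For hormone synthesis the scores were −0.26, 0.14, 0.28 and −0.16 in thyroids 1 to 4, and for follicular epithelium −0.16, 0.25, 0.37 and −0.45. In whole glands, fewer cells of a type and less RNA per cell cannot be told apart.

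A range of at least 1 on the log2 scale, the unit of which is a doubling of the signal, was found in 23.5% of all member genes, and a range of at least 2 in 4.59%. Of the 15 detected synthesis genes 4 reached the first limit and none the second. The first share is near that of all genes, but dim genes, which vary more, raise the latter. The list's median SD of 0.402 was above that of all genes (0.277). It was also above the 0.211 of the class of like signal (11.2 to 11.93), which holds the list's median of 11.4. Among the thyroid transcription factors 2 of 5 reached the first limit (Foxe1 and Pax8) and 1 the second (Foxe1).

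**Figure D2:**
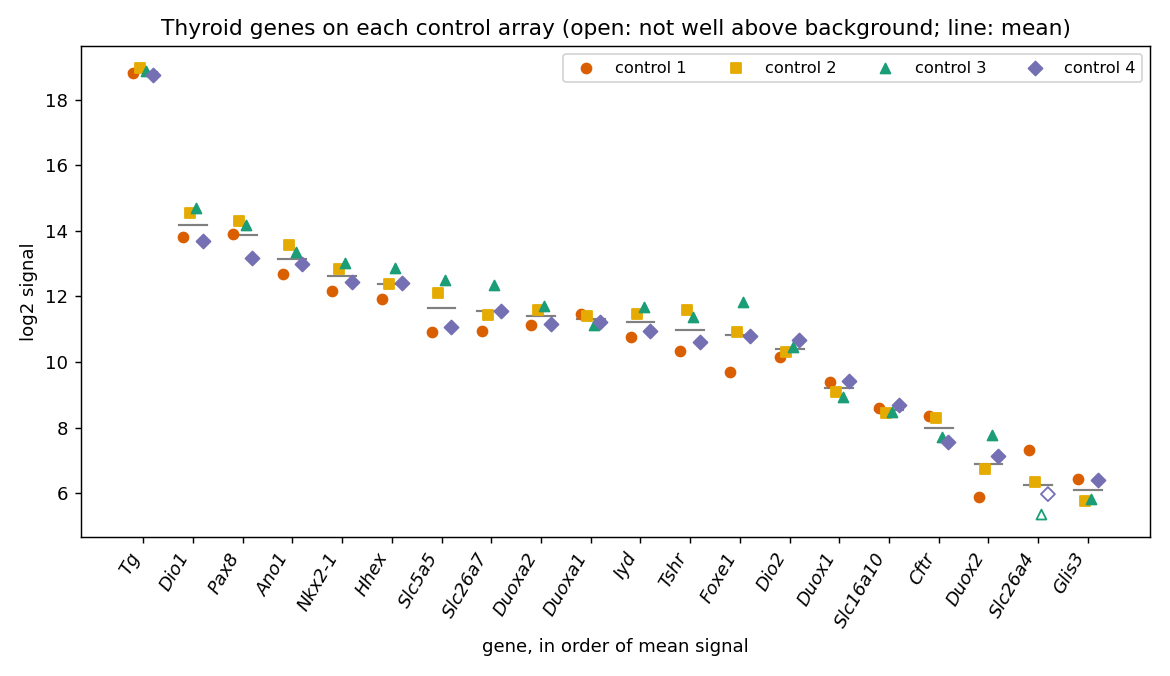
Log2 signal (vertical axis) of genes of hormone synthesis, the thyroid transcription factors and Tshr in each of the 4 control thyroids, ordered along the horizontal axis by mean signal. Filled symbols are well above background and open symbols are not, and grey lines are means: Tg stands at 18.84 on average and Slc26a4 is open in control thyroids 3 and 4.

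All 16 listed genes of TSH receptor and cAMP signalling were detected. Tshr had 10.33, 11.58, 11.39 and 10.60 (rank 6566), again with thyroids 2 and 3 the highest. Gnas, the stimulatory G protein subunit that couples the receptor to adenylate cyclase, had a mean of 16.91 ± 0.24 (SD, n = 4, rank 119). Of the adenylate cyclases, Adcy9 had a mean of 13.06 and Adcy6 of 12.17, whereas Adcy3 (7.55 ± 0.66, SD, n = 4) and Adcy5 (9.17 ± 0.15) were dimmer. The subunits of protein kinase A had means of 14.04 (Prkar2b), 14.00 (Prkar1a), 13.92 (Prkacb) and 8.82 (Prkaca). Among the 16 genes, 3 had a range of at least 1 (Adcy3, Pde4d and Tshr). The list's median SD of 0.224 was below that of all genes (0.277). It was near the 0.232 of the class of like signal (10.48 to 11.2), which holds the list's median of 11.12. Pde4d, a phosphodiesterase that breaks down cAMP, had 10.24, 9.81, 9.28 and 10.93 and so ran the other way from Tshr between thyroids 3 and 4.

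Of 12 listed receptors and partners of thyroid hormone, 10 were detected on all 4 arrays and none had a range of at least 1. Thra, the receptor TR-alpha, had a mean of 13.46 ± 0.25 (SD, n = 4) and Thrb, the receptor TR-beta, 9.53 ± 0.18. The corepressor Ncor1 had a mean of 11.56 ± 0.11. Klf9, a gene known to respond to the hormone, had 13.35, 13.37, 13.34 and 13.45. This made it one of the steadiest genes of the list, with an SD of 0.053. The members not detected on all arrays were Dio3, the inactivating deiodinase (arrays 1 and 3), and Ttr, the plasma carrier transthyretin (arrays 1 and 2).

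Further groups serve the making and the breakdown of thyroglobulin, a large secreted glycoprotein. All 16 listed genes of protein folding in the endoplasmic reticulum were detected, with a median rank of 1097, and 12 of them had their highest values in thyroids 2 and 3. The chaperone Hspa5 (BiP) had 16.17, 16.28, 16.95 and 16.05, and Ero1lb, an oxidase for disulfide bonds, had the widest range, with 12.14, 12.80, 13.79 and 13.03. The list scores were −0.21, −0.01, 0.46 and −0.24, so that thyroid 3 stood above the others. Of the 10 genes of thyroglobulin uptake and proteolysis, 9 were detected. The lysosomal proteases Ctsl, Ctsd and Ctsb had means of 15.84 ± 0.34, 15.70 ± 0.13 and 15.66 ± 0.13 (SD, n = 4). Asgr1, the asialoglycoprotein receptor, had 14.23, 15.34, 15.49 and 14.35. Cubn, the endocytic receptor cubilin, had 5.54, 5.54, 5.64 and 6.28 and was not detected on array 2, although its signal there was like that on array 1.

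All 15 listed genes of peroxide and superoxide defence were detected (median rank 1428) and none had a range of at least 1, although their levels differed widely. Sod1, the cytosolic superoxide dismutase, had a mean of 16.81 ± 0.24, the peroxiredoxin Prdx6 16.17 ± 0.27 and Sod2, the mitochondrial dismutase, 16.06 ± 0.094 (SD, n = 4). At the other end, Nqo1, a quinone reductase, had 8.31, 8.42, 7.89 and 8.77 (rank 11693). Of the selenoproteins, whose family includes the deiodinases, all 12 on the array were detected. The glutathione peroxidases Gpx4 and Gpx1 had means of 16.14 ± 0.12 and 15.48 ± 0.12. The 2 selenoprotein list members with a range of at least 1 were Sepw1 (16.45, 15.67, 15.31 and 15.98) and Sephs2, an enzyme of selenium supply (6.81, 7.75, 7.97 and 7.86).

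Products of other endocrine cells were among the brightest genes. Pth, the parathyroid hormone, was at rank 17 with 18.33, 18.45, 18.45 and 18.16 (mean 18.35 ± 0.14, SD, n = 4). Casr, the calcium-sensing receptor of parathyroid and C cells, had 10.85, 11.89, 11.93 and 11.49, and Gcm2, the transcription factor that defines the parathyroid, a mean of 8.35 ± 0.39. The parathyroid signal was therefore present in all 4 thyroids.

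Of the 11 listed C cell genes 10 were detected. Calca, the calcitonin gene, was at rank 69 with 16.82, 17.91, 17.93 and 17.16, and Chga, the granule protein chromogranin A, at rank 31 with 17.66, 18.23, 18.43 and 17.77. In 8 of the 10, thyroids 2 and 3 were the 2 highest. The exception of largest size was Gfra4, the persephin receptor subunit, which ran the other way, with 15.33, 14.44, 14.28 and 13.91. These values rest on a probe with a mean of 14.49, and the brighter of 2 further Gfra4 probes had a mean of 9.18. The list scores were −0.48, 0.32, 0.42 and −0.26, and 7 of the 10 genes had a range of at least 1. Calcb, a calcitonin-related gene, was not detected on any array.

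Skeletal muscle genes were among the brightest of the libraries. Of 32 listed genes 31 were detected, their median rank was 266, and 10 of them were among the 100 brightest genes. Tnni2 and Tnnc2, the fast troponins I and C, were at ranks 6 and 7. The log2 signal of Tnni2 was 19.01, 18.75, 18.34 and 18.96, and that of Acta1, skeletal actin, 18.34, 18.04, 17.91 and 18.65. Both were highest in thyroids 1 and 4. In 28 of the 31 genes these were the 2 highest arrays, a pair found in 15.3% of all genes. The list scores were 0.37, −0.37, −0.76 and 0.76, and 27 of the 31 genes had a range of at least 1. Cox6a2, the muscle form of a respiratory chain subunit, had 17.36, 16.54, 15.90 and 17.49. Rpl3l, the muscle form of a ribosomal protein, had 13.85, 12.68, 12.18 and 14.50. It was also the single one of 81 detected ribosomal protein genes with a range of at least 1.

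Slow and cardiac muscle genes did not all follow this order. Myl3, a slow and ventricular light chain, had 7.35, 14.06, 9.22 and 11.32, the largest range among the 7599 brighter genes (105-fold). Myh7, the slow myosin heavy chain, had 5.80, 8.34, 7.43 and 9.17, and Tnnc1, the slow troponin C, 5.98, 7.28, 5.13 and 6.31, with the third value not well above background. All 3 were thus higher in thyroid 2 than in thyroid 1. By contrast, the slow genes Tnnt1 (13.91, 12.46, 11.49 and 13.86) and Myl2 (11.85, 9.42, 8.53 and 11.66), which were chosen after their values were seen, followed the fast genes, with thyroids 1 and 4 the highest. Thbs4, a thrombospondin of tendon and muscle, had 12.11, 9.33, 9.08 and 12.35, also with thyroids 1 and 4 above the others.

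Of the 15 genes of largest range among the 7599 brighter genes, 12 had their 2 highest values in thyroids 1 and 2. This pair was the highest in 14.8% of all member genes and in 34.2% of the 698 genes with a range of at least 2. Among them, Dntt, the terminal transferase of immature lymphocytes, had 13.93, 13.49, 7.51 and 7.68, an 85.2-fold range. Tbata, a gene of thymic epithelium, had 13.62, 13.09, 7.32 and 8.78, and all 5 of its RefSeq probes were higher on arrays 1 and 2 than on arrays 3 and 4. Ccl25, the chemokine that draws progenitors into the thymus, had 14.25, 13.73, 9.30 and 10.44. In each of these genes, which were picked for their large range, thyroids 1 and 2 were above thyroids 3 and 4 without overlap.

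Several of the T cell markers were in the same group. Lck, the T cell receptor kinase, had 14.83, 14.00, 11.63 and 11.05, and Cd3e, a chain of the receptor complex, 13.62, 12.26, 10.17 and 10.07. Of 10 listed T cell genes 9 were detected on all 4 arrays, and all 9 had a range of at least 2 and their 2 highest values in thyroids 1 and 2, a pair found in 14.8% of all genes. The list scores were 2.23, 1.11, −1.68 and −1.66. Ptprcap, Satb1 and E2f2, the last a regulator of DNA replication genes, were also among the 15, each with thyroids 1 and 2 the highest.

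Genes with the largest differences fell outside the member genes, since they were not detected on every array. Of the 10 thymocyte genes 10 were detected on array 1 and 10 on array 2, against 5 on array 3 and 4 on array 4, so that 4 entered the member genes. Rag1, which cuts the receptor genes in developing lymphocytes, had 12.14 and 10.84 in thyroids 1 and 2, and 3.1 and 3.13, not well above background, in thyroids 3 and 4. Cd8b1 had 11.95 and 10.63 against 4.63 and 4.84, again not well above background in thyroids 3 and 4, and Cd3d had 13.18, 11.85, 6.82 and 6.12, the last not well above background. Cd3d was the brightest of the genes detected on 3 of the 4 arrays, which numbered 898. The dimmest member genes, such as Kcnu1 with 4.74, 5.55, 5.46 and 6.19, were far below it. Among thymic epithelium genes, Foxn1, the factor that defines this epithelium, had 7.42, 7.58, 5.81 and 5.69, with the last not well above background. Psmb11, the thymus form of a proteasome subunit, was detected on arrays 1 and 2, with 8.77 and 7.96. Aire, the regulator of tissue antigens in thymic epithelium, did not follow this order, with 6.15, 5.45, 6.19 and 5.64, and was well above background on arrays 1 and 3.

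Genes of cell division followed the same order. Of the 20 detected genes 17 had their 2 highest values in thyroids 1 and 2, 17 had a range of at least 1, and the scores were 0.98, 0.86, −0.97 and −0.87. Top2a, a topoisomerase of dividing cells, had 9.04 and 9.76 in thyroids 1 and 2 and was not well above background in thyroids 3 and 4, with 4.04 and 4.08. The replication factors Mcm7 and Pcna varied less: Mcm7 had 12.59, 12.51, 11.84 and 11.49, and Pcna 12.99, 13.23, 13.02 and 12.62. Among histone genes, Hist1h2ab had 14.45, 13.46, 8.76 and 7.91, and Hist1h2ag 16.86, 16.34, 13.20 and 12.90. Histone genes are near-identical copies, so their probes may also bind other members of the family. By its brightest probe Cdk1, the kinase that drives mitosis, went against the list, with 5.86, 5.83, 6.16 and 10.05. The high value was in thyroid 4. The brighter of 2 further Cdk1 probes had a mean of 5.79. With outlier-marked spots left out, the highest and lowest cell division scores differed by 2.165, against 1.944 with all spots. Leaving Cdk1 out of the list would move the scores in this direction. Whether its value of 10.05 came from an outlier-marked spot was not tested, so it is not read as a difference between thyroids. The part of thymus tissue in the scores of cell division was not tested.

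**Figure D3:**
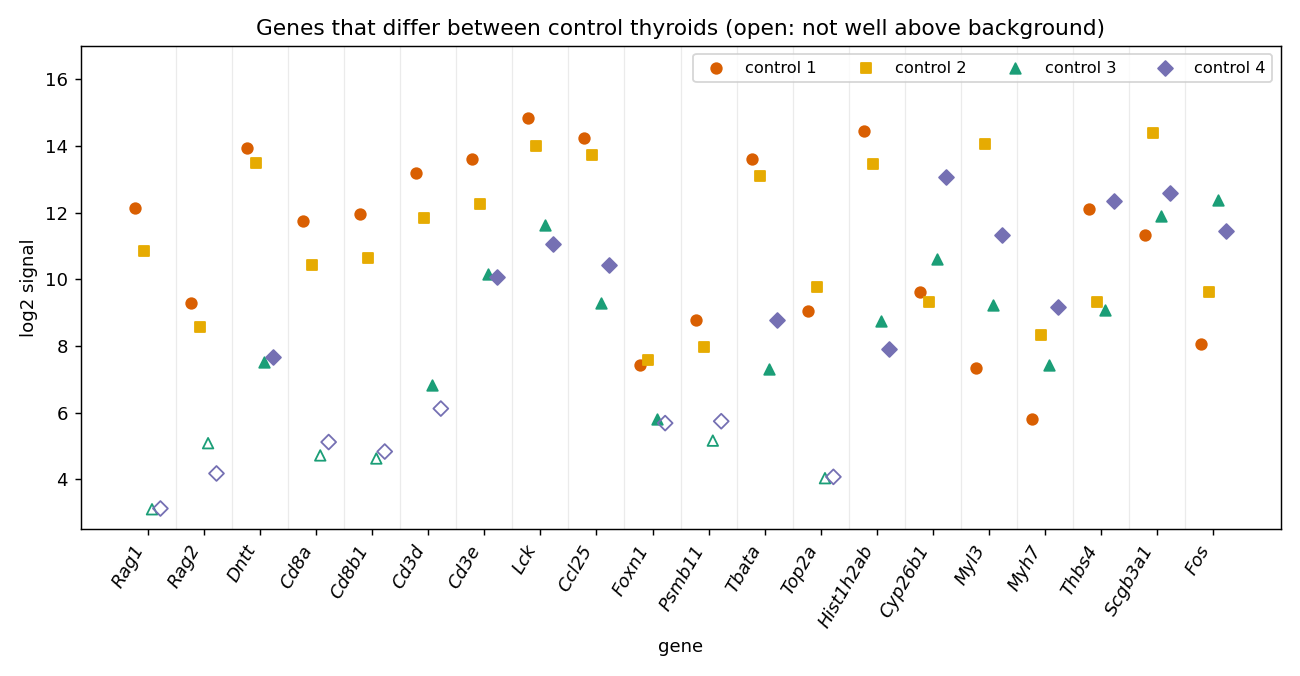
Log2 signal (vertical axis) of 20 genes with large differences between the 4 control thyroids (horizontal axis: gene). Open symbols are not well above background: Rag1 stands at 12.14 and 10.84 in control thyroids 1 and 2 and at 3.1 and 3.13 in control thyroids 3 and 4, while Myl3 is highest in control thyroid 2 and Fos in control thyroid 3.

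Other immune lists were mixed. Of the 10 detected genes of dendritic cells and MHC class II, 8 had a range of at least 1. H2-Ab1, an MHC class II chain, had 15.43, 15.73, 14.37 and 14.03, and Cd74, the invariant chain, 15.10, 15.03, 13.67 and 13.18, both with thyroids 1 and 2 the highest. Ccr7, a chemokine receptor of dendritic cells and lymphocytes, had the widest range, with 10.51, 9.22, 7.46 and 7.31. These class II genes are known in thymic epithelium as well as in dendritic cells. B cell genes were dim: 6 of 11 were detected on all 4 arrays. Igj, the joining chain of secreted antibodies, had 11.84, 10.77, 6.48 and 7.05, a wider range than that of Lck or Cd3e. The 12 detected macrophage genes had scores between −0.25 and 0.17, and 2 had a range of at least 1. C1qc, a complement chain, had the widest, with 12.81, 12.13, 11.40 and 11.79, and Mpeg1, a pore-forming protein, had 12.07, 12.43, 11.60 and 11.39. Csf1r, the macrophage growth factor receptor, had a mean of 13.67 ± 0.15 (SD, n = 4).

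Airway genes had list scores of −0.53, 0.87, −0.20 and −0.14 over 9 detected genes, of which 7 were highest in thyroid 2 and 2 in thyroid 4. Scgb3a1, a secretoglobin of airway epithelium, had 11.32, 14.40, 11.89 and 12.60, and Scgb1a1, the secretoglobin of club cells, 10.07, 12.03, 9.91 and 9.87. Tekt1, a protein of cilia, had 11.70, 13.58, 12.92 and 12.87. The genes highest in thyroid 4 were Muc5b, an airway mucin, with 9.52, 10.48, 9.73 and 11.88, and Rsph1, a protein of cilia, with 9.41, 9.88, 9.35 and 10.31. Squamous epithelium genes had no common order: the scores were 0.38, 0.21, −0.14 and −0.45, and 3 of the 8 detected genes had their 2 highest values in thyroids 1 and 2. Krt5, a keratin of basal cells that thymic epithelium also makes, had 13.66, 13.20, 10.96 and 10.81, whereas Krt15, another keratin, had 10.50, 10.91, 11.02 and 10.03. Comp, a matrix protein of cartilage and tendon, had 12.74, 8.71, 8.91 and 10.41, while Col2a1, the collagen that defines cartilage, was detected on arrays 1 and 3 alone.

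Fat, vessel and connective tissue genes differed in spread. Of the 15 listed adipocyte genes 14 were detected (median rank 990) and none had a range of at least 1, with a median SD of 0.307. The fatty acid carrier Fabp4 had 16.38, 17.10, 17.21 and 17.33. Ucp1, the uncoupling protein that defines brown fat, had 15.90, 16.85, 16.30 and 16.58 (rank 194), a range of 0.951. Of the 7 brown fat genes 3 had a range of at least 1 (42.9%). Among these, Cox7a1 and Fabp3 were highest in thyroids 1 and 4, as most muscle genes were, and the other gene in thyroids 2 and 3. The 13 genes of fibroblasts and matrix were all detected without a range of at least 1 (median SD 0.313), led by Sparc with a mean of 17.72 ± 0.24 and the proteoglycan Dcn with 16.77 ± 0.14 (SD, n = 4). All 14 endothelial genes were detected and all were highest in thyroid 3, which was the highest array for 32.7% of all member genes. The scores were −0.30, −0.02, 0.35 and −0.03, and 3 of the 14 had a range of at least 1. Flt1, a VEGF receptor, had 14.43, 14.73, 15.12 and 14.55.

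Red cell genes and interferon-stimulated genes were mostly highest in thyroids 2 and 3. All 5 detected erythroid genes had their 2 highest values in thyroids 2 and 3. Hba-a1, an alpha-globin, had 15.86, 16.65, 17.19 and 16.48. The erythroid score of thyroid 2 (0.083) changed sign under other settings, between −0.106 and 0.292. Of the 18 interferon-stimulated genes, all detected, 14 had this pair highest, although their scores stayed within −0.45 and 0.32.

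Immediate-early genes, which switch on within minutes of a stimulus, were highest in thyroids 3 and 4. Of the 23 detected genes 14 had this pair highest (21.5% of all genes), and 12 had a range of at least 1. Fos had 8.05, 9.62, 12.37 and 11.46, a 20.1-fold range, and Jun 14.31, 14.60, 15.66 and 14.91. Jund varied less, with a mean of 15.37 ± 0.27 (SD, n = 4). The scores were −0.43, −0.32, 0.51 and 0.24. Circadian clock genes had 12 of 17 detected genes highest in thyroids 1 and 4, the pair that was also highest for muscle. Dbp and Tef, both clock-driven transcription factors, had 15.38, 14.18, 14.26 and 14.78, and 15.42, 14.42, 14.83 and 15.45. The times of day of the dissections are not given in the sources used here.

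**Figure D4:**
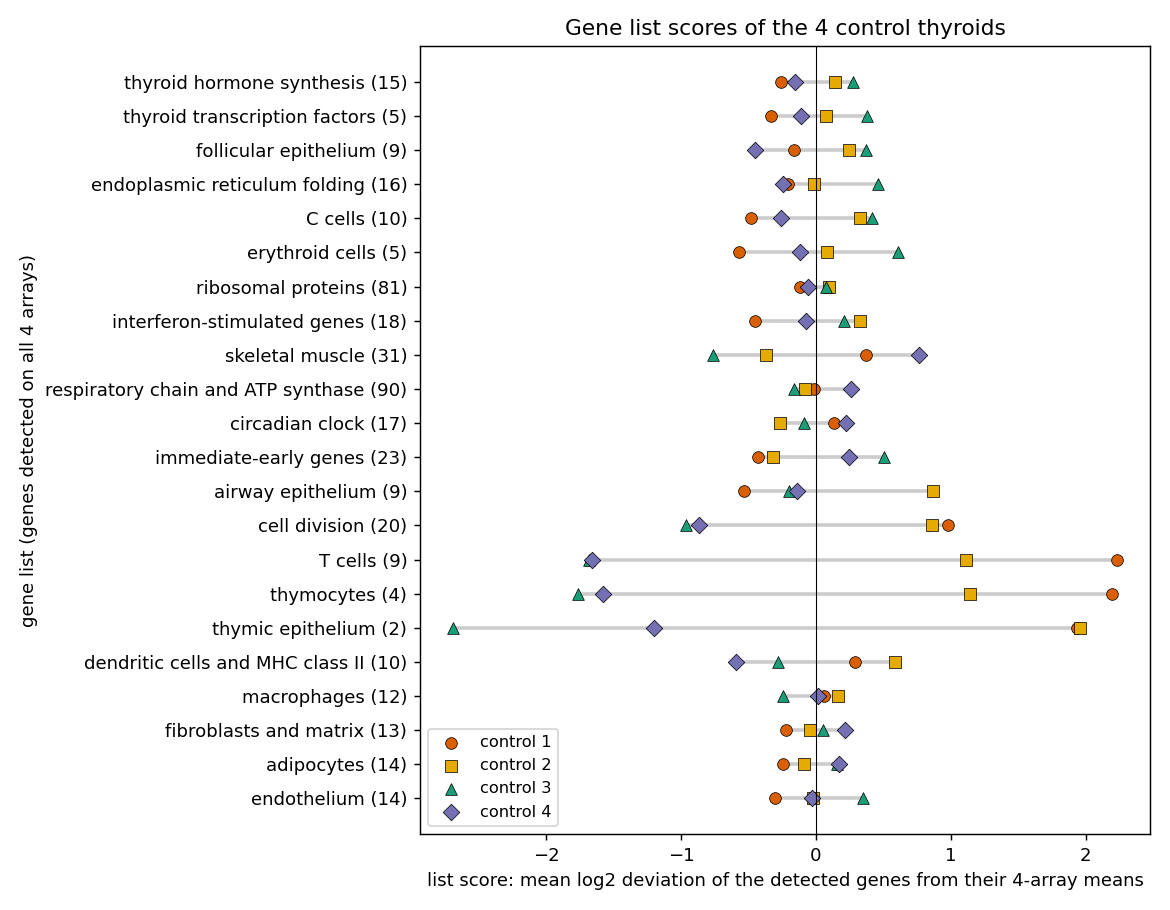
List score of each control thyroid (horizontal axis, log2 units) for 22 gene lists (vertical axis, with the number of genes detected on all 4 arrays). Grey bars span the 4 scores: T cell, thymocyte, thymic epithelium and cell division scores are positive in control thyroids 1 and 2 and negative in 3 and 4, whereas the scores for ribosomal proteins stay within −0.12 and 0.10.

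Genes of basic cell functions had smaller median SDs than all member genes (0.277), but they were also brighter than most. In the brightest of 10 equal classes by signal the median SD was 0.215, which is below that of the respiratory chain list given here. Of 83 ribosomal protein genes 81 were detected, with a median rank of 189 and a median SD of 0.146, and 22 of them were among the 100 brightest genes. Rplp0 had 17.39, 17.82, 17.76 and 17.69. Of 92 genes of the respiratory chain and ATP synthase 90 were detected (median rank 336, median SD 0.231), and 51 of these were highest in thyroids 1 and 4, as the muscle genes were. The 37 detected proteasome genes had a median SD of 0.169 and none reached a range of at least 1. Psmb6, a catalytic subunit, had 15.65, 15.66, 15.71 and 15.66. None of the 15 genes often used as references had a range of at least 1. Actb had 17.53, 17.95, 18.16 and 17.73, and Gapdh 18.52, 18.49, 18.25 and 18.49. The 6 further RefSeq probes of Gapdh were all higher on arrays 1 and 4 than on arrays 2 and 3, as muscle genes were.

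The 10 genes of smallest SD among the 7599 brighter genes were Cdc14a, Ap4b1, Rbm12, Ppil4, Gpr146, Wdr1, Cyp39a1, Flot1, Hras1 and Arhgef3, with SDs between 0.008 and 0.021. Wdr1, an actin-binding protein, had 12.26, 12.29, 12.27 and 12.28. Out of 7599 genes, some would have such small SDs from 4 arrays whatever their true spread, so these values describe the arrays.

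Over all member genes the median SD between control thyroids was 0.277 (quartiles 0.175 and 0.434) and the median range was 0.615, or 1.53-fold. For 305 probes printed 10 times on each array the median SD within an array was 0.077, which covers spot noise and not labelling or hybridisation, and between the arrays' means it was 0.259. The spread depended on brightness. With the genes split by signal into 10 equal classes, the median SD was between 0.211 and 0.232 in the 5 brightest classes and 0.451 in the dimmest, where 760 of 1520 genes had a range of at least 1 against 176 of 1520 in the brightest. Non-coding genes were dimmer (median log2 signal 8.20 against 10.54 for coding genes), and 36.7% of them had a range of at least 1 against 23.1% of coding genes.

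**Figure D5:**
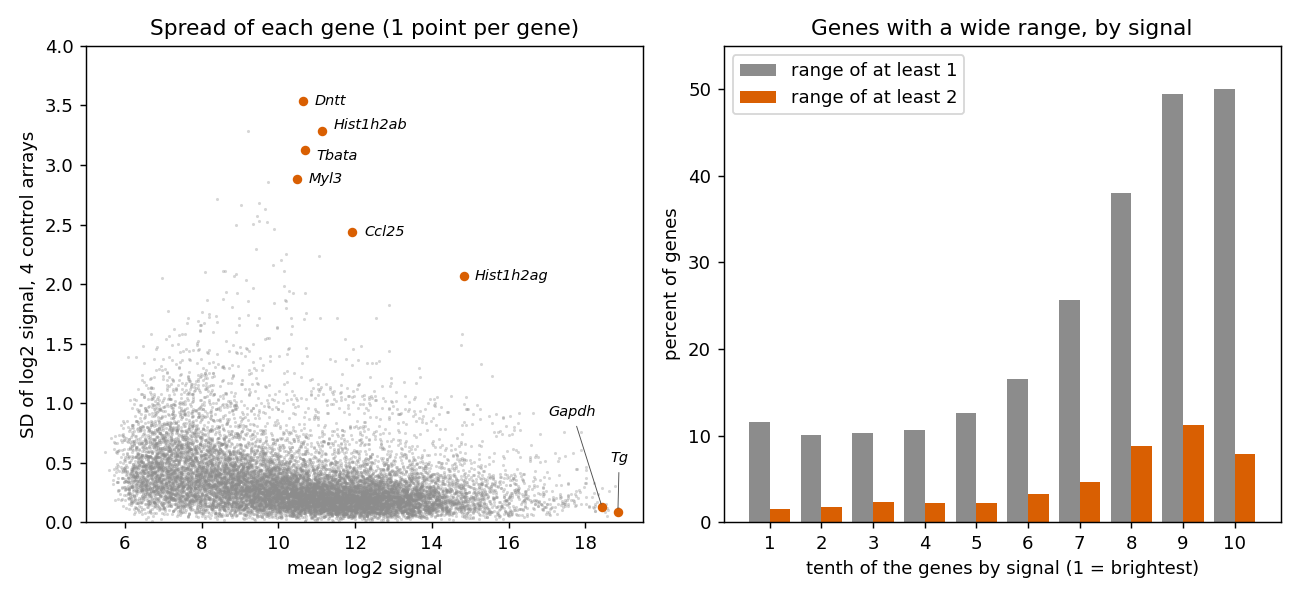
Left, SD of the log2 signal over the 4 control arrays (vertical axis) against mean log2 signal (horizontal axis), 1 point per member gene, with named genes in orange. Right, percent of genes with a range of at least 1 (grey) and at least 2 (orange) in each of 10 equal classes of the genes by signal, from 11.6% and 1.58% in the brightest to 49.5% and 11.25% in the ninth class and 7.83% for the wider range in the dimmest.

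The 3571 genes with a range of at least 1 were not divided evenly among the arrays. Thyroid 1 was the lowest in 47.1% of them and the highest in 28.3%, against 44.4% and 21.1% of all member genes. Among the 698 genes with a range of at least 2, thyroid 1 was the highest in 48.4% and thyroid 3 the lowest in 48.4%, and the pairs of highest arrays were thyroids 1 and 4 in 34.7% and thyroids 1 and 2 in 34.2%. The pair of arrays with fewest genes differing by at least 1 was thyroids 2 and 3, with 504 genes (3.3%), and thyroids 1 and 3 had most, with 2381 (15.7%). Without thyroid 1, 1649 genes had a range of at least 1 and 395 a range of at least 2. Without thyroid 3 the second count was 448. When the genes of the thymus, T cell, cell division and muscle lists were left out, 15132 genes remained and the counts were 3512 and 661. These lists hold few genes, so the counts cannot show how much of the spread goes with those tissues.

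Different probes of a gene gave partly the same differences. For the 3769 genes with at least 2 detected probes, the deviations of the arrays from the gene's mean had a Pearson correlation of 0.501 between the 2 brightest probes, across genes and arrays that are not independent. The same array was the highest by both probes in 52.3% of these genes. Among the 85 genes whose brighter probe had a range of at least 2, the correlation was 0.684, and in 70.6% the second probe had a range of at least 1. Among the other genes of large range, Cyp26b1, which breaks down retinoic acid, had 9.63, 9.32, 10.61 and 13.08, the high value in thyroid 4. Crip3 had 12.81, 12.05, 7.79 and 11.58, the low value in thyroid 3, and Fxyd2, a regulator of the sodium pump, had 13.64, 12.41, 10.17 and 11.60.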

How the data were processed

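RNA of 4 control thyroids was hybridised to one-colour arrays that lay on 1 slide read in 1 scan. The authors deposited the scanner output of Feature Extraction 10.7.3.1, which holds spot intensity with and without background subtraction, other columns of spot flags and probe names, and a table of log2 values. The deposited log2 values differed from log2 median spot intensity, quantile-normalized over the 8 arrays of the series, by at most 0.0378.

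The log2 of the background-subtracted intensity was quantile-normalized over the 4 arrays in limma 3.58.1 (R 4.3.3), and the spots of a probe were averaged. A probe counted as detected on an array where a share of at least 0.5 of its spots carried the software's flag for well above background. Summaries used Python 3.11.15 and pandas 2.3.3. The calculation of spreads was tested on simulated data. No test between groups was made, and with so few arrays (4) each value has limited precision. Probes were placed by the mm9 coordinates in the scanner output. Accessions of 14974 of the 15198 member genes were found in the RefSeq table of GRCm38.p6, and 13452 symbols were unchanged.

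Named genes were the 20 of highest signal, the 15 of largest range and the 10 of smallest SD among the brighter 7599 genes, all genes of 7 lists and, in the other lists, the 3 brightest, the widest and the undetected. Synrg, Pbld1, Gm12070, Kcnu1, Tnnt1 and Myl2 were named after their values were seen. The members and the 43 lists were chosen with earlier results of these data known. Scaling, background correction, deposited values, filters, probe choice, outlier marks and each array left out were tried as alternatives. Some genes of the lists are counted but not reported here by name.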

Additional observations from a re-analysis of the deposited data

Results flagged for a closer look

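Of 325 values examined over the 4 control arrays (scanner summaries, list scores and named genes), 13 had 1 array far from the other 3 by Dixon's test, where chance gives about 1 in 20, or 16.2. The 75th percentile of the intensity was 701 on array 1, against 1144 to 1230.0 on the others. Cdk1, by the brightest of its probes, had 10.05 in thyroid 4, against 5.83 to 6.16, and whether an outlier-marked spot gave the high value was not tested. Scgb1a1 had 12.03 in thyroid 2, against 9.87 to 10.07. Rxra had 8.28 in thyroid 1, against 7.42 to 7.55. Prkaca had 9.16 in thyroid 1, against 8.70 to 8.73, and Adcy9 12.92 in thyroid 1, against 13.10 to 13.12. Cldn4 had 8.76 in thyroid 4, against 9.82 to 10.03. Dpt had 11.87 in thyroid 4, against 10.88 to 11.03. Gapdh had 18.25 in thyroid 3, against 18.49 to 18.52, and Pdpn 11.44 in thyroid 3, against 11.69 to 11.73. Among genes not detected on all arrays, Matn3 had 6.69 in thyroid 1, against 3.43 to 3.82, Mmp8 3.95 in thyroid 1, against 3.31 to 3.41, and Cubn 6.28 in thyroid 4, against 5.54 to 5.64.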

How the results depend on the processing

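The number of member genes and the median SD stayed within 1.5 times their values of 15198 and 0.277 under every alternative run (15092 to 21021 genes and 0.215 to 0.325). The counts of wide ranges did not. The count of genes with a range of at least 1 was 2245 with normexp background correction, 2228 without background subtraction and 2126 in the deposited values, against 3571, and that of a range of at least 2 was 353, 371 and 344, against 698. With no filter on dim probes the counts were 7175 and 2282. Leaving out 1 array at a time, the first count ran from 1649 (without thyroid 1) to 3228 and the second from 395 (without thyroid 1) to 607. The difference between the highest and lowest thymic epithelium score (4.64, over 2 genes) was 2.81 with detection on 3 arrays, 2.88 with no filter and 2.78 to 4.74 with an array left out, since more of the list then entered or fewer arrays remained. For the thyroid transcription factors (0.712) it was 0.412 to 0.711 with an array left out. For T cells, thymocytes, cell division, skeletal muscle and hormone synthesis this difference stayed within 1.5 times under each alternative. Of 168 list scores 51 changed sign under at least 1 alternative, the largest of them 0.197 in size. Leaving out probes with a repeated stretch, an alternative chosen after seeing the data, moved 1700047I17Rik2 from rank 20 to 8557. No paired analysis was possible because no groups were compared. Other causes of these shifts were not tested. Dim genes, and genes at background on some arrays, are known only roughly here, and 4 thyroids cannot show how common each tissue mixture is.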

Other observations

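Some gene groups of the control thyroid have not yet been described. Of the 11 heat shock genes on the array all were detected (median rank 807), and the small heat shock protein Cryab had 17.02, 16.003, 16.26 and 16.98, highest in thyroids 1 and 4. The 10 glucocorticoid targets were all detected with scores between −0.12 and 0.10, and the metallothionein Mt1 had 18.13, 18.31, 18.38 and 17.91 (rank 28). Neutrophil genes were uneven and mostly dim: 7 of the 10 on the array were detected on all 4 arrays, with a median log2 signal of 9.65. Lactoferrin (Ltf) had 10.02, 12.64, 10.82 and 10.69, with thyroid 2 the highest. Csf3r, the receptor for granulocyte growth factor, stood far above the rest of the list, with a mean of 16.84 ± 0.15 (SD, n = 4) and rank 132. It has no other RefSeq probe, and what this probe bound was not tested. Mast cell genes were dim (6 of 8 detected), with the protease Mcpt4 at 10.35, 10.07, 9.06 and 10.19. Of the Schwann cell and neuron genes 10 of 12 were detected, and Prx, periaxin of the myelin sheath, had 10.94, 11.46, 12.45 and 12.60, while the probe of Snap25 in this list holds a repeated stretch.

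The lymphatic endothelium was weakly represented, with Lyve1 at 9.24, 8.32, 8.33 and 9.85. Among smooth muscle genes, Acta2 had 14.20, 14.26, 14.23 and 14.27, whereas Lmod1 had 7.54, 7.48, 6.70 and 8.87.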
